A study of Mus musculus with 4 samples.

Results

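The Arp2/3 complex was examined through the genes of its subunits in bulge hair follicle stem cells (HF-SCs) of the mouse. All 9 listed genes, *Actr2*, *Actr3*, *Arpc1a*, *Arpc1b*, *Arpc2*, *Arpc3*, *Arpc4*, *Arpc5* and *Arpc5l*, were found by symbol in the deposited table, each with a mean above 0, among 17044 such genes of 24421 in all. Bulk RNA-seq had been performed on 2 control and 2 *miR-205*-induced libraries of FACS-purified HF-SCs, collected from back skin on postnatal day 44. The sort took live cells with high H2BGFP, α6 integrin and CD34 that lacked Sca1. All mice are labelled C57BL/6. In the induced mice, *Krt14*-rtTA drives the *pTRE2-miR-205* transgene in keratin 14-expressing skin cells when doxycycline is given, here for 2 d. The line was made by injection into FVB mice. All mice carried the *Krt14-H2b-GFP* reporter. The labels call the control mice untreated, while the protocol has both groups on doxycycline, and which transgenes the controls carried is not stated. Nothing states whether a library came from 1 mouse or several.

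The deposited table holds no value for a single library. Its 1 usable measurement is the mean normalized count, the authors' average over all 4 libraries of read counts divided by size factors. The reads are paired, so a counted read stands here for 1 read pair. The mean pools control and induced cells. The table gives the effect of induction only as the authors' own comparison, so the response of the subunits to *miR-205* is not analysed here, and the spread between mice cannot be given for any value. The intervals given are 95% limits for counting error only, taken at the largest value that the library depths allow. They are too narrow to stand for replicate error, and reads are not independent molecules. No test was run.

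The Arp2/3 complex starts a new actin filament on the side of an existing one and so builds branched actin networks. The actin-related proteins Arp2 and Arp3 sit side by side and take the place of the first actin molecules of the branch, and the ARPC subunits hold them and bind the mother filament. The complex is idle until proteins of the WASP and WAVE families switch it on. Branched actin pushes membranes outward and supports cell-cell junctions in epithelia, while formins build unbranched filaments. Each complex holds its subunits in equal copies. Message levels need not follow that ratio.

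The study induced *miR-205*, a microRNA of skin epithelium. Its mature strand is shown because the subunit transcripts were searched for it. The capitals mark the seed, bases 2 to 8, which a microRNA uses to find its targets. The sequence is from RefSeq on GRCm38.p6, chromosome 1, 193507503 to 193507524, minus strand.
miR-205-5p: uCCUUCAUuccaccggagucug

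The heptamer that pairs with this seed, ATGAAGG, was absent from the longest 3′UTR of every one of the 9 subunits in GENCODE vM1. Of 15327 detected genes with a 3′UTR, 1680 held it, or 11%. The search covered 1089 bases for *Actr3*, which is close to the median of 1018 bases over all genes, 2385 bases for *Actr2*, 1840 for *Arpc1b*, 1672 for *Arpc4*, 1275 for *Arpc5*, and between 248 and 757 for the other four. Absence says only that these letters are not in these windows. The shorter match TGAAGG, which pairs with bases 2 to 7 and lies within the heptamer, occurred once each in *Arpc1b* and *Arpc4*, or in 2 of 9 subunits, against 34.5% of all genes. In the coding sequences, a region added after the first search, the heptamer occurred once, in *Actr2*, against 21.9% of all genes. The 3 places are shown on the sense strand, with the matched bases in capitals.
Arpc1b, 3′UTR bases 967 to 972 of 1840: tgacaggccctacgcTGAAGGccaccaca
Arpc4, 3′UTR bases 1040 to 1045 of 1672: caagcaccgtcattcTGAAGGcggtttct
Actr2, coding bases 509 to 515 of 1185: acatttgcccagtatATGAAGGcttttctc
*Actr3* held neither the heptamer nor the hexamer in its 3′UTR. A match, or the lack of one, describes the letters and does not tell whether *miR-205* binds the message.

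*Actr3* had the highest level of the complex per kb of exon. Levels of different genes were compared per kilobase, as the mean normalized count over the summed length of all annotated exons. *Actr3*, which encodes Arp3 (chromosome 1, 125392905 to 125435727 on GRCm38.p6), had a mean normalized count of 5240 (5156 to 5324) and a level of 2089 per kb (2056 to 2123). Between 15014 and 25918 reads over the 4 libraries lie behind this mean. *Actr3* alone held 33.0% of the normalized counts of the 9 subunits. Its level was 6.6 times the median of the 8 other subunit genes, which was 316.3 per kb. Genes for alternative forms of the same subunit entered this median separately, and no value was taken for such forms summed. The ratio of 6.6 is the highest of those found with the gene lengths used. It was 3.07 per kb of coding length, 4.2 in counts not divided by length and 1.67 with the shortest coding transcript, and *Arpc5* and *Arpc1b* came first with the coding length and the shortest coding transcript, respectively.

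*Actr2* encodes Arp2, the partner of Arp3 in the branch (chromosome 11, 20062304 to 20112951). Its mean normalized count was 1534 (1489 to 1580), and its level was 294.9 per kb (286.2 to 303.6). The 2 actin-related subunits thus stood 7.09-fold apart per kb (counting interval 6.85 to 7.33). With the coding length in place of the exon length, which leaves out the long 3′UTR of *Actr2*, the gap was 3.22-fold, in the same direction. *Actr3b*, a second gene for an Arp3-type protein, was near the floor of the data, with a mean normalized count of 6.38 and between 18 and 32 reads over the 4 libraries. The level of *Actr3* was 570 times that of *Actr3b* (360 to 901).

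The core subunits *Arpc2* and *Arpc4*, whose proteins form the centre of the complex and contact the mother filament, were not level with each other. *Arpc2* (chromosome 1, 74236490 to 74268209) came second after *Actr3*, with a mean normalized count of 2700 (2640 to 2760) and a level of 1505 per kb (1472 to 1539). *Arpc4* (chromosome 6, 113378113 to 113390447) had a mean normalized count of 448.0 (423.5 to 472.5) and a level of 192.9 per kb (182.3 to 203.4). *Actr3* was 1.39-fold above *Arpc2* and 10.8-fold above *Arpc4*. *Arpc3*, a subunit at the Arp3 side of the complex (chromosome 5, 122391878 to 122406181), had a mean normalized count of 829.7 and a level of 321.4 per kb (308.5 to 334.4). Its place moves with its length, since 2581 bases of exon are annotated for it in all and 899 in its longest coding transcript, which gave 923 per kb.

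Among the listed genes, 2 subunits are each represented by a pair. *Arpc5* and *Arpc5l* encode alternative forms of the ARPC5 subunit, and *Arpc5* was far the higher. *Arpc5* (chromosome 1, 152766542 to 152775580) had a mean normalized count of 2311 (2256 to 2367) and a level of 1015 per kb (991 to 1040). *Arpc5l* (chromosome 2, 39008066 to 39015878) was the lowest subunit, with a mean normalized count of 270.7 (251.7 to 289.8) and a level of 61.0 per kb (56.7 to 65.3). The ratio of *Arpc5* to *Arpc5l* was 16.6 per kb, and it was 8.54 in counts not divided by length.

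The pair *Arpc1a* and *Arpc1b* encodes alternative forms of the WD-repeat subunit, and which form was higher depended on the length used. The genes lie next to each other on chromosome 5, *Arpc1a* at 145083869 to 145108756 and *Arpc1b* at 145114256 to 145128186. *Arpc1a* had a mean normalized count of 959.5 (923.7 to 995.4) and a level of 373.8 per kb (359.8 to 387.8). *Arpc1b* had a mean normalized count of 1588 (1542 to 1634) and a level of 311.2 per kb (302.2 to 320.2). Per kb of exon the ratio of *Arpc1a* to *Arpc1b* was 1.2, but it turned to 0.607 per kb of coding length, so the data set no order between the forms. ARPC1B is known as the main form in blood cells. Of 6 immune markers, 2 lay above the median gene of 39.7 per kb, *Cd74* at 1950 and *Tyrobp* at 77.6, while *Laptm5* was at 37.9 and *Ptprc*, which encodes the pan-leukocyte antigen CD45, was at 15.1 per kb. The part of immune cells in the level of *Arpc1b* was not tested.

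**Figure D1:**
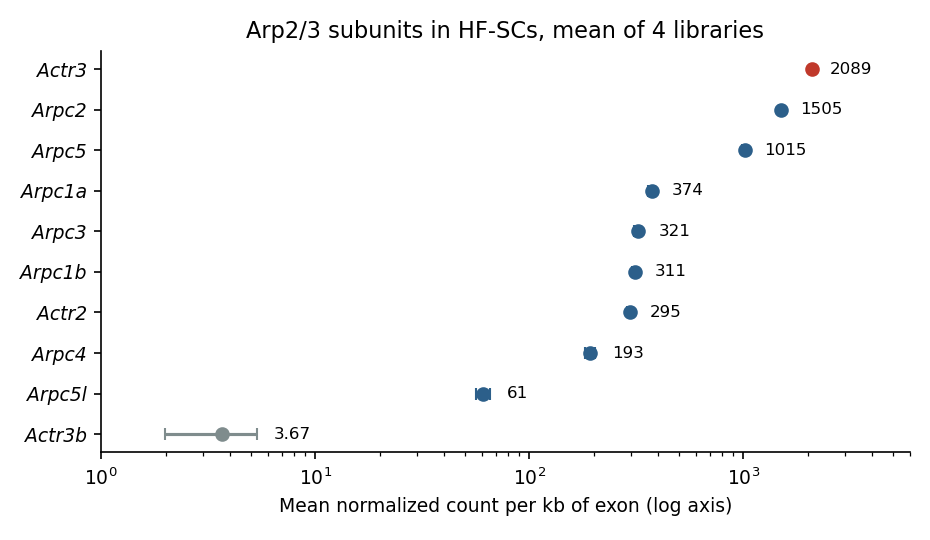
Level of each Arp2/3 subunit and of Actr3b in HF-SCs, as mean normalized count per kb of exon on a log axis, pooled by the authors over 4 libraries. Bars are 95% limits for counting error and not replicate error. Actr3 lies highest at 2089, Arpc5l is the lowest subunit at 61.0, and Actr3b lies far below at 3.67.

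Per kb of exon the subunits spread widely. *Actr3*, *Arpc2* and *Arpc5* stood above 1000 per kb, *Arpc1a*, *Arpc3*, *Arpc1b* and *Actr2* between 294.9 and 373.8, and *Arpc4* and *Arpc5l* at 192.9 and 61.0. These gaps depend on the length used, and per kb of coding length *Arpc3* stood at 1545, *Arpc1b* at 1419, *Actr2* at 1295, *Arpc4* at 883.7 and *Arpc1a* at 862.1. *Actr3* was 34.2 times as high as *Arpc5l*, a ratio that was 8.65 between the highest and the lowest subunit per kb of coding length. *Arpc5l* was lowest with every length except the longest protein-coding transcript, where *Arpc4* was. The counting intervals of *Arpc3* and *Arpc1b* overlapped, as did those of *Arpc1b* and *Actr2*. Overlap of such intervals does not decide the order of a pair, and no interval was computed for the ratio of these neighbours. All other neighbours lay further apart than counting error. *Actr3*, *Arpc2* and *Arpc5* held the top 3 places with every length used except the shortest coding transcript, where an annotated fragment of 295 bases put *Arpc1b* first. *Actr3* came second there and also per kb of coding length, where *Arpc5* was first and the ratio of *Actr3* to *Arpc5* was 0.822.

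**Figure D2:**
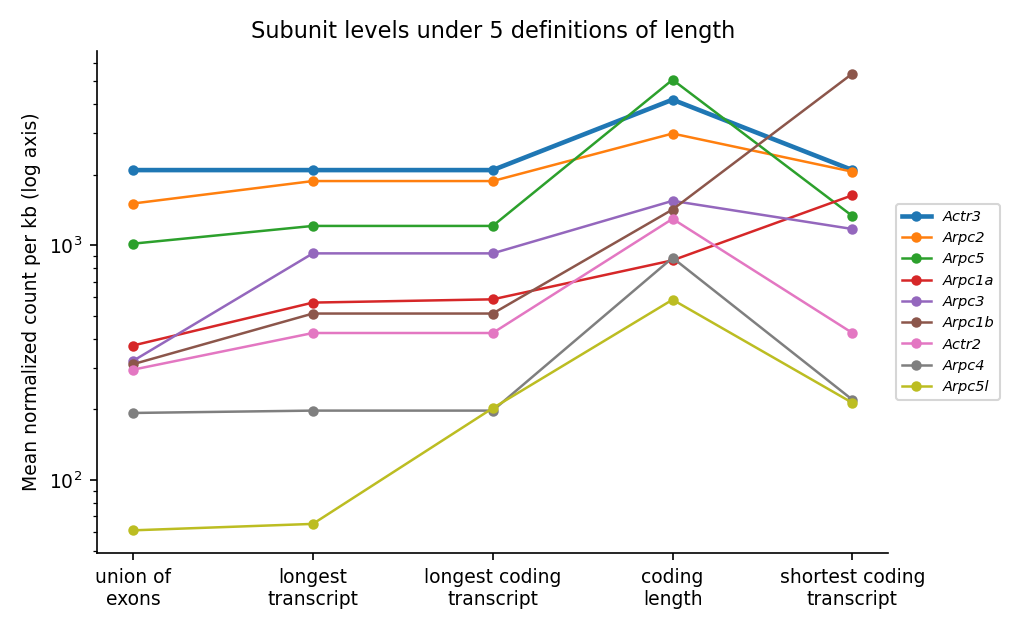
Level of the 9 subunits on a log axis under 5 definitions of gene length. Each line is 1 gene. Actr3 stays first or second throughout, Arpc1b crosses Arpc1a, and Arpc5l, at 61.0 per kb of exon, stands at 586 per kb of coding length.

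All 9 subunits lay above the median of the 16234 detected genes with a length, which was 39.7 per kb. *Actr3* was at percentile 98.3, *Arpc2* at 97.6 and *Arpc5* at 96.5. *Arpc1a*, *Arpc3*, *Arpc1b* and *Actr2* were between percentiles 87.4 and 90.2. *Arpc4* was at 80.7 and *Arpc5l* at 58.0. *Actr3b* lay at percentile 23.6. Together the 9 genes took 0.121% of all normalized counts. Among genes with a mean over 50, 8 of the 9 subunits stayed above the median, with *Arpc5l* below it.

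**Figure D3:**
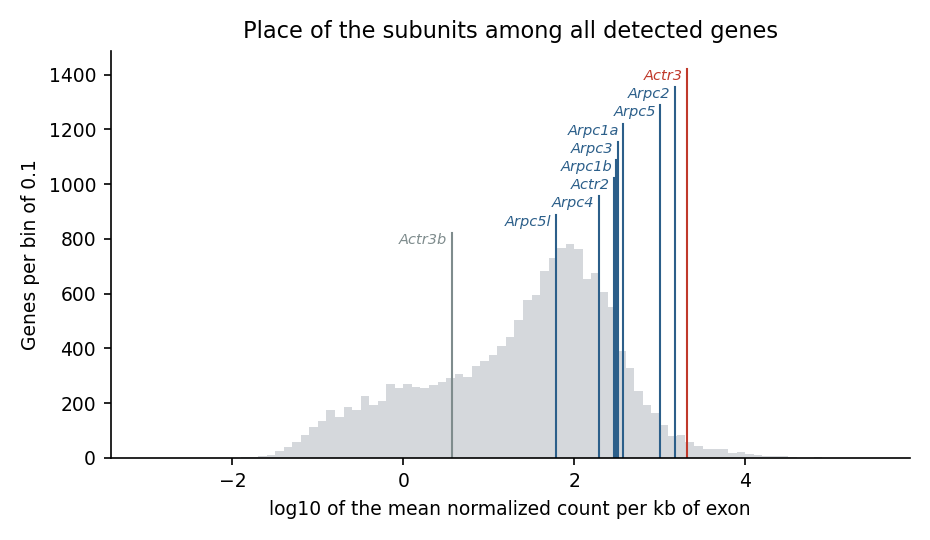
Histogram of the log10 level of all detected genes in bins of 0.1, with vertical lines at the Arp2/3 subunits and Actr3b. All 9 subunits lie right of the median of 39.7 per kb, and Actr3 lies at percentile 98.3.

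*Actr3* is also the subunit whose reads are most easily confused with another locus. When the longest coding transcript of each subunit was aligned to NCBIM37, a locus on chromosome X covered 98.7% of the *Actr3* transcript at an identity of 98.7%. It is annotated as the pseudogene *Gm8822*, which RefSeq names *Actr3-ps*. No row of the deposited table has either name. Reads that cannot be told apart between the gene and such a copy may be lost or assigned to either, so the level of *Actr3* is uncertain for this reason. For *Arpc5*, a copy annotated as *Gm16372* covered 91.8% at an identity of 95%. For *Actr2*, copies on chromosomes 6 and 7 covered 64.7% and 52.5%, at identities of 94.4% and 93.3%. *Arpc1b* had a copy over 36.8% of its transcript at 97.4%, *Arpc2* over 38.1% at 95.6% and *Arpc1a* over 21.1% at 94.5%. *Arpc3*, *Arpc4* and *Arpc5l* had no hit of 150 bases or more at an identity of 90%. How much each copy moved a count was not tested.

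**Figure D4:**
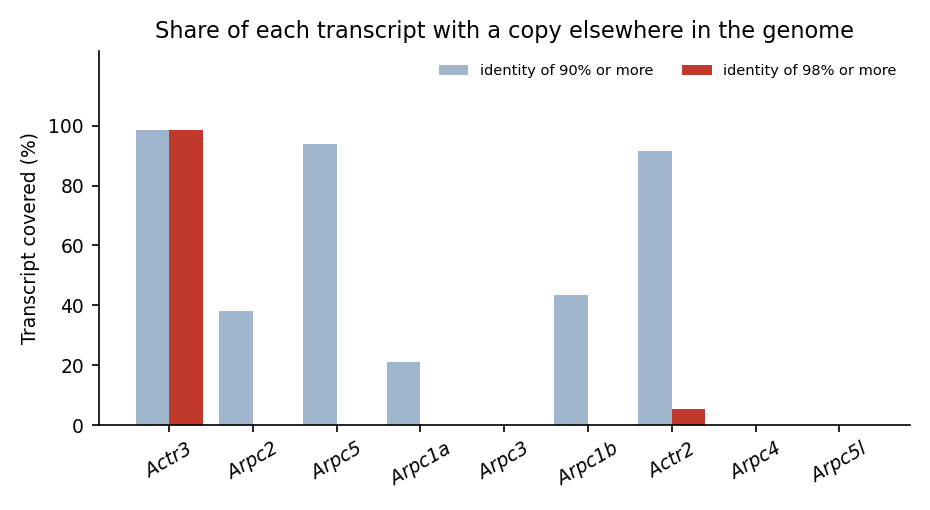
Share of the longest coding transcript of each subunit, in percent, that matches another place in NCBIM37 over at least 150 bases, at identities of at least 90% and at least 98%. Actr3 stands at 98.7% for both, Arpc5 and Actr2 exceed 90% only at the lower identity, and Arpc3, Arpc4 and Arpc5l are at 0.

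Neighbouring genes overlap 3 of the subunits in GENCODE vM1. The overlaps are of whole gene spans, and whether the shared bases are exons of both genes was not checked. *Ttll3*, on the same strand, shares 1189 bases with *Arpc4*, and had a mean normalized count of 81.3. *Pdap1*, on the opposite strand, shares 1937 bases with *Arpc1b*, and had a mean of 645. *Kpna7* overlaps *Arpc1a* by 201 bases with a mean of 0.517. The library kit keeps strand, but the counting setting is not given in the sources used here. Reads from *Arpc1b* and *Pdap1* may thus not have been told apart. For *Arpc4* and *Ttll3*, strand cannot separate the reads in any case. How much an overlap moved the level of *Arpc4* or *Arpc1b* was not tested.

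The genes that switch the complex on were mostly lower than the subunits. Of 10 activators of the WASP and cortactin type, all had a mean above 0, and 6 had a mean over 50. Their median was 56.6 per kb against 321.4 for the subunits. The highest were *Cttn*, which encodes the branch stabiliser cortactin, at 616 per kb, *Jmy* at 245 and *Wasf2*, the WAVE2 gene, at 197. *Wasf3* was the lowest at 0.212. All 9 subunits had a mean over 50, and their list leaves out *Actr3b*, at 3.67 per kb. The medians thus depend on which genes were listed, and they were compared per kb of exon only. Of the WAVE regulatory complex, which holds WAVE idle until it is switched on, 4 of 8 genes lay above the median gene. They included *Abi1* at 633 per kb, *Brk1* at 607 and *Nckap1* at 460. In the WASH complex, which acts on endosomes, the 4 partners lay between 75.2 and 244 per kb, with *Washc2* (listed as *Fam21*) highest, *Washc3* (listed as *Ccdc53*) at 134 and *Washc5* at 87.6. Of the WASP-interacting proteins, *Wipf2* stood at 100 per kb while *Wipf1* and *Wipf3* were at 4.73 and 1.3.

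Genes that restrain the complex or take branches apart had a median of 47.3 per kb over 10 genes. *Coro1b*, a coronin that helps remove branches, was at 624 per kb, *Gmfb*, whose product severs branches, at 187 and *Coro1c* at 120. *Arpin*, whose product competes with WAVE for the complex, was at 57.5, a gene named after its value was seen.

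The other route to new filaments was also present. The 19 formins and other nucleators had a median of 28.5 per kb, and 7 of them lay above the median gene. The highest was *Inf2* at 623 per kb. *Daam1* followed at 333 and *Diaph1* (listed as *Diap1*), the mDia1 gene, at 323, within the range of *Arpc1a*, *Arpc3*, *Arpc1b* and *Actr2*. *Actr3* was higher than any gene of this list. Capping protein, which stops the growth of filament ends and keeps branches short, was represented by *Capzb* at 625 per kb, *Capza1* at 267 and *Capza2* at 265, while *Capza3* was listed at 0. Actin itself was far above its nucleators, with *Actg1* at 37600 and *Actb* at 9810 per kb. Among muscle actins *Acta2* was at 29.9 and *Actc1* was listed at 0.

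**Figure D5:**
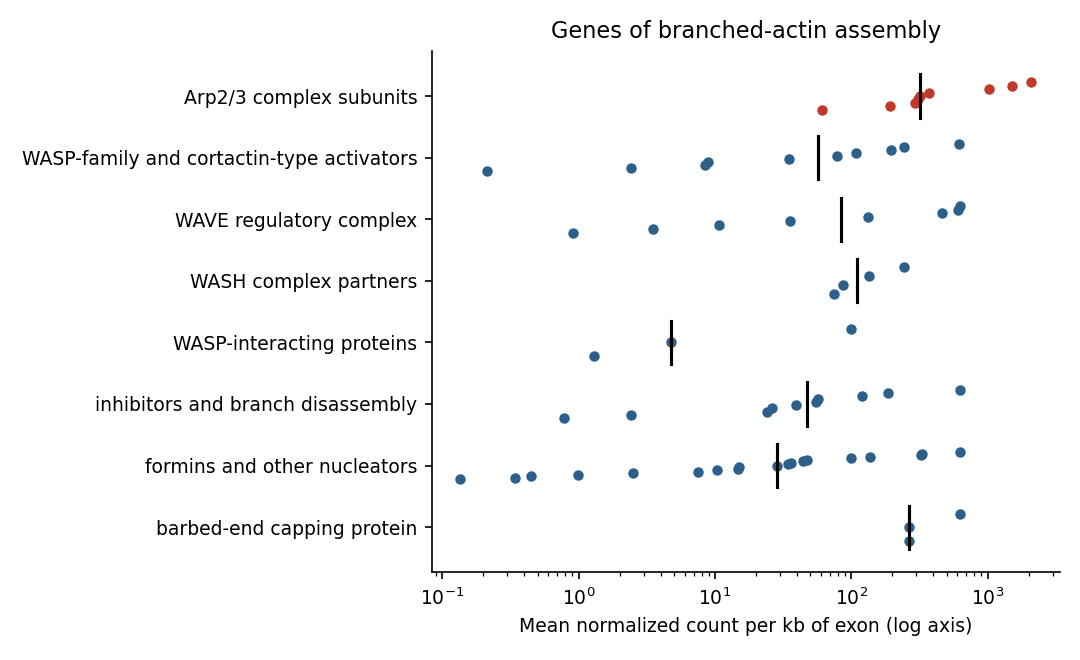
Level per kb of exon, on a log axis, of the Arp2/3 subunits and of other lists of actin-assembly genes, formins included, in HF-SCs. Points are genes pooled over 4 libraries and black bars are list medians, with the gene listed at 0 counted in the median of capping protein but not drawn. The Arp2/3 subunits have a median of 321.4 and the activators of the WASP and cortactin type one of 56.6.

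The markers of the labelled cell type were high. All 10 HF-SC markers lay above the median gene, from *Tcf7l1* at 178 per kb to *Krt15*, *Krt5* and *Krt14* at 67000, 66700 and 51700. *Cd34*, whose product was used in the sort, was at 5560. The sort also used α6 integrin and a *Krt14*-driven reporter, so the genes of these and *Cd34* are no independent check of cell type. The paper uses *Krt5* and *Krt14* to identify epithelial cells as a whole. Transcripts that mark other cell types were also counted, although the sort was set to leave such cells out, and their source was not tested. Suprabasal markers were all above the median gene, led by *Sbsn* at 4700, *Krt10* at 3460 and *Krtdap* at 1090 per kb. Of 6 fibroblast markers 5 were above it, led by *Col1a1* at 790, *Col3a1* at 405 and *Col1a2* at 387, and of 5 melanocyte markers 4, led by *Mitf* at 325, *Dct* at 201 and *Pmel* at 103. The 5 endothelial markers lay between 1.04 and 8.43 per kb, with *Pecam1*, *Cdh5* and *Vwf* highest. Among HF-SC markers not used in the sort, *Sox9* at 1340, *Lhx2* at 1020, *Nfatc1* at 759, *Lgr5* at 432 and *Tcf7l1* lay below the suprabasal *Sbsn* and *Krt10*. *Krt15* lay above both. *Sox9*, *Lhx2*, *Nfatc1* and *Lgr5* were named after their values were seen. The Arp2/3 subunits are made in nearly every cell type, and the part of any other cells in their levels was not tested. In bulk samples fewer cells of a type and less RNA per cell cannot be told apart.

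The depth of the libraries was read from genes with a single read. Their means recur at 4 values, held by 232, 187, 143 and 138 genes, which correspond to size factors of 1.24, 0.966, 1.18 and 0.716. The deepest library thus had 1.73 times the depth of the shallowest. Which group each belongs to cannot be told from the means. Summed over all genes the 4 libraries hold between 37500000 and 64700000 counted read pairs. The half-width of the counting interval ran from 1.6% of the mean for *Actr3* to 7.0% for *Arpc5l*.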

How the data were processed

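HF-SCs were purified by FACS and sequenced as 150-nt read pairs. Per the study's methods and the submitters' processing notes, reads were aligned with HISAT2 2.1.0, converted with SAMtools 1.3.1, counted with HTSeq and compared with DESeq2 by the authors. The methods name the genome as both NCBI37 and mm10, the notes as mm10, and the annotation is not given in the sources used here. The 1 measurement used, the deposited mean normalized count, is a signal that pools all 4 libraries. The other deposited columns hold the authors' log2 fold change, its standard error, the Wald statistic, the p-value and the adjusted p, and were not used.

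The mean was divided by exon length, from GENCODE vM1 on NCBIM37 matched by symbol or RefSeq synonym for 16234 of 17044 detected genes. Gene positions are RefSeq on GRCm38.p6, and no coordinate was converted. Copies were sought with BLAST 2.17.0 (identity 90%, length 150). A mean is a sum of whole reads each worth 1 of 4 steps, and 100% of the 2459 means under 2 were such sums within 1e-06. Named genes are the 9 subunits, *Actr3b*, and of every other list the up to 3 highest per kb and any at 0, with further genes named as chosen after their values or, for *Cd34* and *Ptprc*, as the sort and leukocyte antigens, and for the lowest member of a list as its bound. 1 list of upstream genes is not reported here. Members and lists were chosen with earlier results of these data known. Alternatives were other lengths, other gene sets and other sites. The steps were tested on simulated data, with Python 3.11.15, numpy 2.4.6, pandas 2.3.3 and matplotlib 3.10.9.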

Additional observations from a re-analysis of the deposited data

How the results depend on the processing

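The level ratios depend on the gene length used. The ratio of *Actr3* to the median of the other subunits was 6.6 per kb of exon, 3.87 with the longest transcript, 1.67 with the shortest protein-coding transcript, 3.07 with the coding length, 4.2 with no length and 3.8 with the longest protein-coding transcript, a setting added after the data were seen. In the same order, the ratio of *Arpc5* to *Arpc5l* was 16.6, 18.6, 6.25, 8.65, 8.54 and 5.97, and that of *Arpc1a* to *Arpc1b* 1.2, 1.11, 0.303, 0.607, 0.604 and 1.15. The turn of the last ratio with the shortest transcript comes from an annotated fragment of 295 bases, which also turns the ratio of *Actr3* to *Arpc1b* to 0.388. The coding length turns the ratio of *Actr3* to *Arpc5* to 0.822. The number of subunits above the median gene was 9 in the main setting and 8 among genes with a mean over 50. It was 9 with undetected genes included and 9 in counts not divided by length. Subunits with a seed match numbered 0 with 7 bases, with 8 bases and in the shortest 3′UTR, 2 with 6 bases and 1 in the coding sequence, the last added after the data were seen. No paired analysis was possible because the deposited table holds no value per library, and for the same reason no library could be left out and no count test was run. Lengths come from an older annotation than the build named for the reads, which limits every value per kb.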
